A study of Homo sapiens with 4 samples.

Results

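The S100 genes encode small calcium-binding proteins, and 10 of them were examined in 2 human colorectal cancer cell lines: S100A2, S100A3, S100A4, S100A6, S100A10, S100A11, S100A13, S100A14, S100A16 and S100P. They were chosen by symbol, as the probe sets of the Affymetrix PrimeView array that its annotation pairs with 1 of these symbols alone, which gave 14 probe sets for 10 of the 18132 genes on the array. A probe set is a group of short probes that read 1 transcript or several of a gene. Of the 10 genes, 7 had 1 probe set, 2 had 2 and S100A4 had 3, and no probe set was shared between a member and another gene. The study used siRNA against BORIS, the protein of CTCFL and a germline relative of the insulator protein CTCF. It was given with a lipid reagent for 3 days. The lines were Caco-2 and HCT116, grown in DMEM with high glucose and serum. Each line received negative control siRNA or BORIS siRNA, and each of these 4 groups was represented by 1 array, so a difference between siRNAs within a line has no replicate check and no p-value. No allele or other agent was named for any group.

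S100 proteins carry EF-hand motifs, the helix-loop-helix folds that hold a calcium ion, and work mostly as dimers. On binding calcium most of them open a surface that grips partner proteins such as annexins, cytoskeletal motors and p53, and several are also released from cells and bind the receptor RAGE. Most of the genes lie side by side on chromosome 1, while S100P lies on chromosome 4. In colorectal tumours S100A4 is known as a marker of spread and S100P as a protein made by many cancers of the digestive tract.

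The arrays had medians of 5.46 to 5.48 on the log2 scale of the deposited values. A background level was taken from 368 probe sets of olfactory receptors, genes assumed here to be mostly silent, which was not tested. Their 95th percentile was 4.80 to 5.15. The targeted gene CTCFL gave no check of the silencing. Its 7 probe sets stayed at 5.09 or lower, below the median, on every array, those with control siRNA included. Of 9 markers of colorectal epithelium, 7 reached the median of at least 1 array. The EPCAM probe sets lay between 11.20 and 12.83 and those of KRT18 between 12.63 and 13.78, but the intestinal cadherin gene CDH17 (2.63 to 4.24) and the homeobox gene CDX1 (2.93 to 4.85) stayed below the median on every array. Genes of the enterocyte program for which Caco-2 cultures are known were not. All probe sets of APOA1, APOB, FABP1, ALPI and SI stayed below the array median on the arrays labelled Caco-2 as well as on those labelled HCT116, with the highest, of APOA1, at 5.08 and 5.26. The transport protein gene TTR was the exception, with 6.86 and 6.89 on the arrays labelled Caco-2. The 3 probe sets of the villin gene VIL1 lay between 4.52 and 9.57 on them and between 2.77 and 4.27 on those labelled HCT116. CDX2, another homeobox gene, ran the other way, with 5.19 to 5.77 on the arrays labelled Caco-2 and 6.91 to 7.23 on those labelled HCT116. In the test between the lines given below, 3 of the 7 epithelium markers tested were higher in HCT116 and 4 lower. The labels' names are kept in the text, and every direction between the lines rests on those labels. Of the markers of other cell types, 0 of 5 fibroblast, 0 of 4 keratinocyte, 1 of 5 leukocyte and 1 of 4 endothelial genes reached the median of any array.

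All 10 S100 genes passed the filter on dim values, which asked for the array median on at least 1 array. So did 11165 of the 18132 genes on the array. The members were chosen with earlier results of these data known, so their passing is not a result about the family. Of the 10, 9 reached the median on all 4 arrays and S100A3 on 3. The strongest pattern was a difference between the lines. S100P was far higher in Caco-2, and its chromosome 1 relative S100A4 was far higher in HCT116. Past the test, 4 genes (S100A2, S100A3, S100A4 and S100A13) were higher in HCT116 and 3 (S100A10, S100A11 and S100P) were lower. The test was limma's moderated test over the 4 arrays, with siRNA as a blocking term. It used a threshold of 0.05 on p-values adjusted by the Benjamini-Hochberg method over 11165 genes, of which it called 19.4% higher and 19.8% lower in HCT116, or 39.2% in all. The arrays of the lines did not overlap for 9 of the 10 genes, where this held for 71.1% of all genes tested. The 2 arrays of a line differ in siRNA, and the labels do not say whether they came from separate cultures. The fit had 1 residual degree of freedom, which is the disagreement of the siRNA difference between the lines. To this limma adds a spread drawn from all genes tested, with 5.49 prior degrees of freedom. Its p-values therefore do not measure the spread between replicate cultures of a line. Quality signals also split by line. The poly-A spike-in controls averaged 6.78 and 6.71 on the Caco-2 arrays and 7.57 and 8.44 on the HCT116 arrays, and the hybridisation controls 10.09 and 10.10, then 10.47 and 10.81. The 3' probe sets of ACTB read above its 5' ones by 1.05 and 0.97 in Caco-2 and by 1.34 and 1.47 in HCT116, while those of GAPDH differed by 0.04 or less on every array. The part of these signals in the line differences was not tested. In these bulk extracts fewer expressing cells and less RNA per cell cannot be told apart.

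S100P, which binds the membrane linker ezrin and RAGE, read 12.78 with control and 12.94 with BORIS siRNA in Caco-2, and 5.90 with either siRNA in HCT116. Its values were high on both Caco-2 arrays and low on both HCT116 arrays, where it lay 0.81 and 0.75 above the background level. The log2 difference, HCT116 minus Caco-2, was -6.96 with a standard error of 0.17 (limma adjusted p = 5.66e-06), or 124-fold, which ranked 8 of the 11165 genes tested toward Caco-2. The lowest Caco-2 array and the highest HCT116 array still lay 6.88 apart.

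S100A4, also called metastasin, binds the heavy chain of non-muscle myosin. Its 3 probe sets gave the opposite pattern. The one with the highest mean read 8.0 and 8.32 in Caco-2, with control and BORIS siRNA in that order, and 12.81 and 12.74 in HCT116. The second read 7.51 and 8.0, then 12.63 and 12.77, and the third 7.27 and 7.97, then 12.52 and 12.66. All 3 separated the lines by over 4 log2 units with no overlap. For the first, the log2 difference was 4.62 with a standard error of 0.16, or 24.5-fold (limma adjusted p = 1.09e-05), which ranked 59 of 11165 toward HCT116. The other 2 gave 4.94 and 4.97 in a fit over all probe sets.

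S100A2, which binds p53 and is known from basal epithelium, read 6.66 and 7.32 in Caco-2 and 8.24 and 9.36 in HCT116. Its log2 difference between the lines was 1.80 with a standard error of 0.20, or 3.49-fold (limma adjusted p = 0.00087). S100A3, a cysteine-rich member best known from the hair cuticle, read 5.76 and 5.26 in Caco-2 and 7.35 and 6.95 in HCT116. Its difference was 1.64 with a standard error of 0.19 (limma adjusted p = 0.00124). In Caco-2 it lay only 0.72 and 0.46 above background, so its Caco-2 level is close to what these arrays can read.

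S100A10 does not need calcium and is held by annexin A2 in a complex at the plasma membrane. It read 13.23 and 12.74 in Caco-2 and 11.82 and 11.31 in HCT116, a log2 difference of -1.42 with a standard error of 0.10, or 2.67-fold (limma adjusted p = 0.000119). Its other probe set gave -1.34. In Caco-2 it was among the brightest genes, with 0.353% and 0.634% of genes as bright or brighter, so its Caco-2 level is near the upper end of the scale, which was 14.04 to 14.17 on the 4 arrays. S100A11, a partner of annexin A1, read 12.15 and 12.22 in Caco-2 and 11.17 and 11.39 in HCT116, a difference of -0.90 with a standard error of 0.11 (limma adjusted p = 0.00162). For both genes the HCT116 arrays lay below both Caco-2 arrays. The 1 probe set of S100A11 is of the _s_at kind, which can bind related transcripts, and RefSeq lists 10 S100A11 pseudogenes, so its value may include them.

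The remaining members differed less. S100A13, which takes part in the release of FGF1 and IL1A from cells, read 10.18 with either siRNA in Caco-2 and 10.99 and 10.52 in HCT116. Its log2 difference was 0.57 with a standard error of 0.17 (limma adjusted p = 0.0379). That call was lost without either Caco-2 array (adjusted p = 0.155 without control, 0.156 without BORIS siRNA), without the HCT116 control array (0.34, adjusted p = 0.0587), without a filter on dim values (0.066) and without an intensity trend in the fit (0.0732). S100A14, an epithelial ligand of RAGE, read 9.24 and 9.12, then 9.53 and 9.94, a difference of 0.55 with a standard error of 0.19 (limma adjusted p = 0.0642). It passed under 6 of 14 alternatives, among them leaving out the HCT116 control array (0.76, adjusted p = 0.0032), and without the HCT116 array with BORIS siRNA it stood at 0.35 (adjusted p = 0.111). S100A16, a widely made member, read 10.90 with either siRNA and then 11.37 and 11.11, a difference of 0.34 with a standard error of 0.14 (limma adjusted p = 0.0944), and its other probe set gave 0.16. It passed under 3 of 14, among them leaving out the HCT116 array with BORIS siRNA (0.47, adjusted p = 0.0072), and without the HCT116 control array it stood at 0.21 (adjusted p = 0.142). S100A6, or calcyclin, was the member whose lines overlapped. It read 13.01 and 13.24 in Caco-2 and 13.17 and 13.15 in HCT116, a difference of 0.04 with a standard error of 0.09 (limma adjusted p = 0.775). These values also lie near the upper end of the scale, with 0.336% to 0.474% of genes as bright or brighter.

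**Figure D1:**
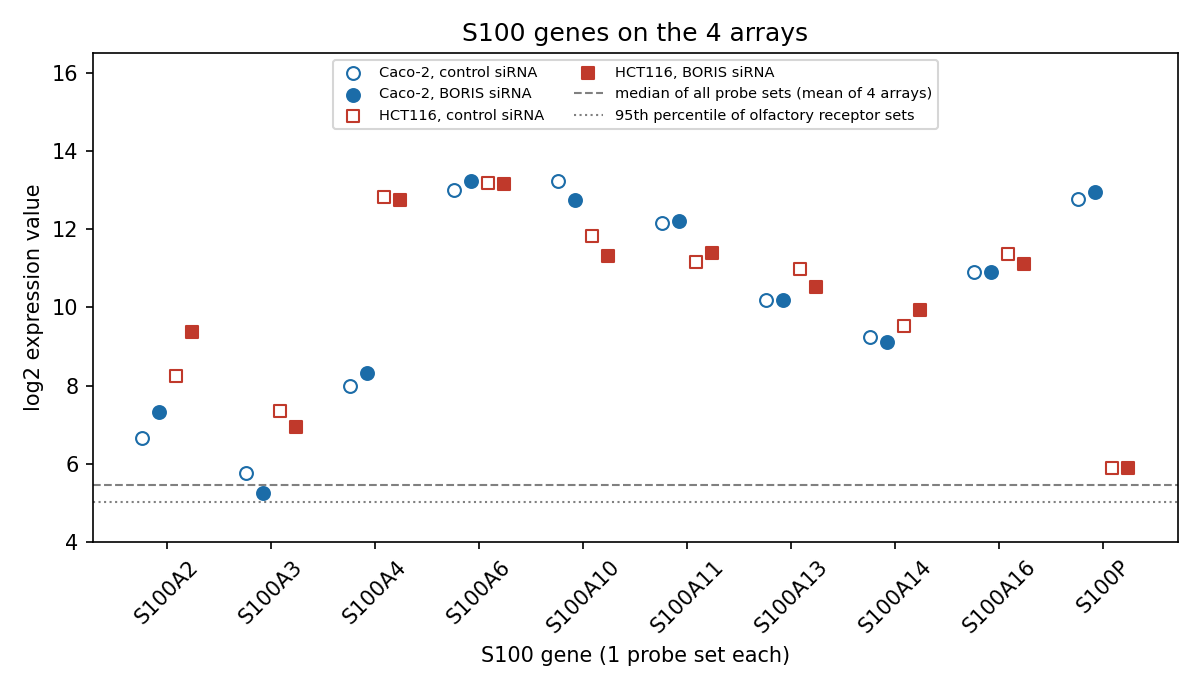
Log2 expression value (vertical axis) of each S100 gene (horizontal axis, 1 probe set per gene) on the 4 arrays, with circles for Caco-2, squares for HCT116, open symbols for control and filled for BORIS siRNA; dashed and dotted lines mark the array median and the background level. S100P drops from 12.78 and 12.94 in Caco-2 to 5.90 in HCT116 while S100A4 runs the other way; heights of different genes are not comparable because their probes differ.

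Along chromosome 1, in the gene order of RefSeq on GRCh38.p14, S100A10 and S100A11 are neighbours, with 47 protein-coding genes between them and the main run. The main run goes S100A9, S100A12, S100A8, S100A7A, S100A7, S100A6, S100A5, S100A4, S100A3, S100A2, S100A16, S100A14, S100A13 and S100A1, with no other protein-coding gene in between. S100A10 and S100A11 were both lower in HCT116, and the adjacent S100A4, S100A3 and S100A2 were all higher there, by 4.62, 1.64 and 1.80. S100A6, which S100A5 separates from S100A4, differed by 0.04, and S100A16, S100A14 and S100A13, on the other side, by 0.34 to 0.57. None of the 10 other S100 genes examined reached the median of any array, with values from 2.66 to 5.30 over 13 probe sets, and 1 of them, S100A1, lay above background, on 2 arrays. These include the phagocyte genes S100A8, S100A9 and S100A12 and the skin genes S100A7 and S100A7A. Because the members were chosen with earlier results of these data known, this contrast with the members is not a result either. The span of S100A5 overlaps that of S100A4, and S100A1 lies within S100A13.

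**Figure D2:**
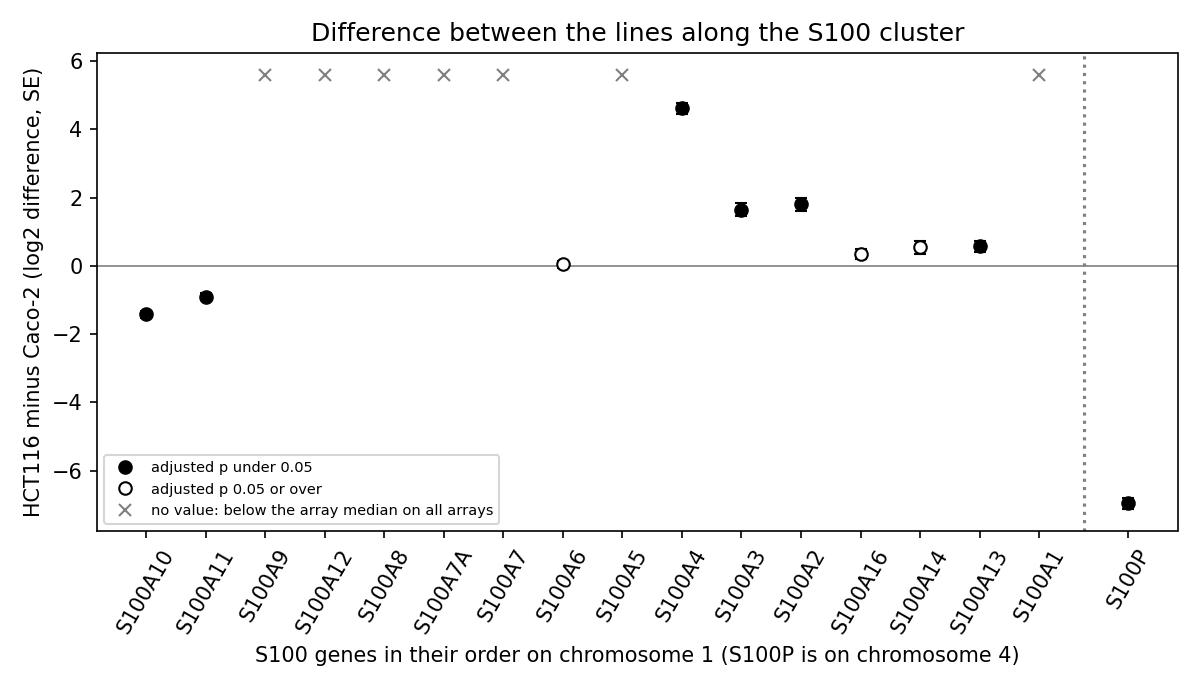
Log2 difference between HCT116 and Caco-2 with its standard error (vertical axis) for the S100 genes in their order on chromosome 1, and for S100P on chromosome 4 (horizontal axis); filled points passed the limma test, open points did not, and crosses mark genes with no value because they stayed below the array median. The adjacent S100A4, S100A3 and S100A2 stand at 4.62, 1.64 and 1.80, S100A10 and S100A11 at -1.42 and -0.90, and S100P at -6.96.

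The sequences just before the starts of the members with the clearest differences are shown, since S100A4, S100A3 and S100A2 lie side by side and were all higher in HCT116, and S100A10 and S100P were lower there. Each is the 250 bases upstream of the gene's start, 5′ to 3′ on the gene's strand, from RefSeq on GRCh38.p14, where all 10 members matched. S100A4 is at chr1:153545807-153546056, S100A3 at chr1:153549259-153549508, S100A2 at chr1:153565845-153566094 and S100A10 at chr1:151993860-151994109, all on the minus strand, and S100P is at chr4:6693628-6693877 on the plus strand. Capitals mark CCCTC, the motif after which CTCF is named, read on both strands (GAGGG on the other), and TATAAA, the core of the TATA box, read on both strands. BORIS shares the zinc fingers of CTCF. The motifs did not overlap in these windows.
S100A4: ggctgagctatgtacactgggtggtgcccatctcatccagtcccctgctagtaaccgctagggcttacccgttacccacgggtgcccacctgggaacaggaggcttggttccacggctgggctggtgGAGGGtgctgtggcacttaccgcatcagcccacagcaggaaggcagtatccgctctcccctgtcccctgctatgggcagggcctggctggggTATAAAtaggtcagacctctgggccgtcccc
S100A3: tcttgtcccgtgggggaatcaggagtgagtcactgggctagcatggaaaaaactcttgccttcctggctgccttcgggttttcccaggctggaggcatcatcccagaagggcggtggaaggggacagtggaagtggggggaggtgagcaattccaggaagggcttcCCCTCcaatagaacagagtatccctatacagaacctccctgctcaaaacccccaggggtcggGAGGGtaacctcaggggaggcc
S100A2: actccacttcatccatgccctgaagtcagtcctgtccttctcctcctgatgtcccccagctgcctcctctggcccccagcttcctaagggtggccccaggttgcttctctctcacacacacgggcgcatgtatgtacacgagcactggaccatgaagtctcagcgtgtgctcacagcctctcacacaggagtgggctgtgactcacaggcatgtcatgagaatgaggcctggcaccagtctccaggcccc
S100A10: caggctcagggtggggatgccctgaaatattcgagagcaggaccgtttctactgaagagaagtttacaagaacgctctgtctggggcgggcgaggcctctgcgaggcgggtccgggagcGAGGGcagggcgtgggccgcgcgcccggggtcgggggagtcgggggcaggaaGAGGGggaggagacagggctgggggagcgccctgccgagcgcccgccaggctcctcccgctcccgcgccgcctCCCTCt
S100P: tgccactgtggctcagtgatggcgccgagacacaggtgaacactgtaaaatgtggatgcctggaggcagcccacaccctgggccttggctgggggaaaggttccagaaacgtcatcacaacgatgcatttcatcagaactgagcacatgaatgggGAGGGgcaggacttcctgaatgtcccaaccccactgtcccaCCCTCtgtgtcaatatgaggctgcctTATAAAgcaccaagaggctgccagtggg
The motif TATAAA lay 26 to 31 bases before the start of S100A4 and 23 to 28 bases before that of S100P. It also lay 24 to 29 bases before 1 of the 3 listed starts of S100A13, whose line difference was 0.57. Counting every start listed, it was in 3 of 14 windows of the members and in 10.7% of 35116 windows of all genes. CCCTC was in 13 of the 14, and in 66.6% of all windows. The window of S100A2 shown held neither, and that of S100A10 held CCCTC 3 times. The dinucleotide CG occurred 24 times before S100A10 and between 4 and 7 times before the other 4 genes shown, against a median of 11 over all windows. A match of letters is a description of the window, and no binding was measured here.

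For S100P, the genes with the most similar 4 centred log2 values among all genes tested were AKR1C1, LGALS4 and MMP7, with root mean square distances of 0.20, 0.27 and 0.29 log2 units over 4 arrays. AKR1C1, an aldo-keto reductase, read 10.77 and 11 in Caco-2 and 3.55 and 4.08 in HCT116. LGALS4, an intestinal galectin, read 11.36 and 11.25, then 4.03 and 3.75, and MMP7, the metalloproteinase matrilysin, 11.45 and 11.96, then 4.35 and 5.08. All 3 lay below background in HCT116, unlike S100P. Set against that level, they were at least 54.2-fold, 72.7-fold and 95.8-fold higher in Caco-2.

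Of 34 genes for partners, receptors and regulators of S100 proteins, 33 had a value and 26 passed the filter on dim values. In the limma test between the lines 11 of the 26 were higher in HCT116 and 5 lower, against 19.4% and 19.8% of all genes. The median difference of the list was -0.01, and over all genes it was 0.01. The ezrin gene EZR, whose product S100P binds, was higher in HCT116, where S100P was near background. It read 9.77 and 9.89 in Caco-2 and 12.08 and 11.77 in HCT116, a difference of 2.09 with a standard error of 0.16 (limma adjusted p = 0.000172). ANXA2, the annexin that holds S100A10, was 0.36 higher in HCT116 (limma adjusted p = 0.0207), where S100A10 was lower. ANXA1, the partner of S100A11, was 0.73 higher there (limma adjusted p = 0.00263). Another annexin, ANXA6, read 5.28 and 5.38 in Caco-2 and 8.07 and 8.51 in HCT116, a difference of 2.96 with a standard error of 0.19 (limma adjusted p = 9.66e-05). Its Caco-2 values lay below the array median of 5.48 and not far above the background level, which was 5.05 and 4.80 on those arrays. The difference therefore rests on a Caco-2 level close to what these arrays can read.

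PPFIBP1 and MYH9 were looked at for S100A4, and CACYBP and SUGT1 for S100A6. In each pair 1 gene passed the test, both higher in HCT116. Of all genes tested, 39.2% passed and 19.4% passed in that direction. The other genes of the list were not sorted by S100 member, so this count rests on the genes picked. The liprin gene PPFIBP1, whose product binds S100A4, was 1.38 higher in HCT116 (limma adjusted p = 0.00482), while MYH9, the myosin that S100A4 binds, stood at -0.56 with a standard error of 0.26 (limma adjusted p = 0.138). CACYBP, named for binding calcyclin, stood at -0.07 (limma adjusted p = 0.666), and the related co-chaperone gene SUGT1 was 1.01 higher (limma adjusted p = 0.0039). Also higher past the test were MDM2, which marks p53 for degradation, by 1.63, the beta-catenin gene CTNNB1 by 0.89 and S100PBP, whose product binds S100P, by 0.81. The synaptotagmin gene SYT1, whose product joins S100A13 in the release of FGF1, and the plasminogen activator gene PLAT lay below background in Caco-2. They were higher in HCT116 by at least 8.31-fold and 9.68-fold. Lower past the test were TLR4, a receptor of S100A8 and S100A9, by at least 3.32-fold with HCT116 below background, TAGLN2 at -2.30, LIMCH1 at -1.09, the sphingosine kinase gene SPHK1 at -0.65 and the ubiquitin ligase gene STUB1 at -0.57. AGER, the gene of RAGE, read between 5.54 and 5.71 on the 4 arrays, close to the median, and stood at 0.05. With BORIS siRNA, 0 of the partner genes reached 2-fold in either line. At 1.5-fold, 1 of the 23 expressed in Caco-2 was higher, ANXA1 at 0.74, where 2.78% of all genes were. Of the 25 expressed in HCT116, 6 were lower at 1.5-fold, where 9.18% of all genes were. They were MYH9 at -0.84, LIMCH1 at -0.75, PPFIBP1 at -0.71, ANXA11 at -0.70, AHNAK, a scaffold of the S100A10 complex, at -0.67 and SYT1 at -0.63, each named after their values were seen. Of 17 other calcium sensor genes with a value, 15 were tested. In the limma test between the lines 1 was higher in HCT116 and 4 lower, against 19.4% and 19.8% of all genes, with a median difference of -0.17.

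**Figure D3:**
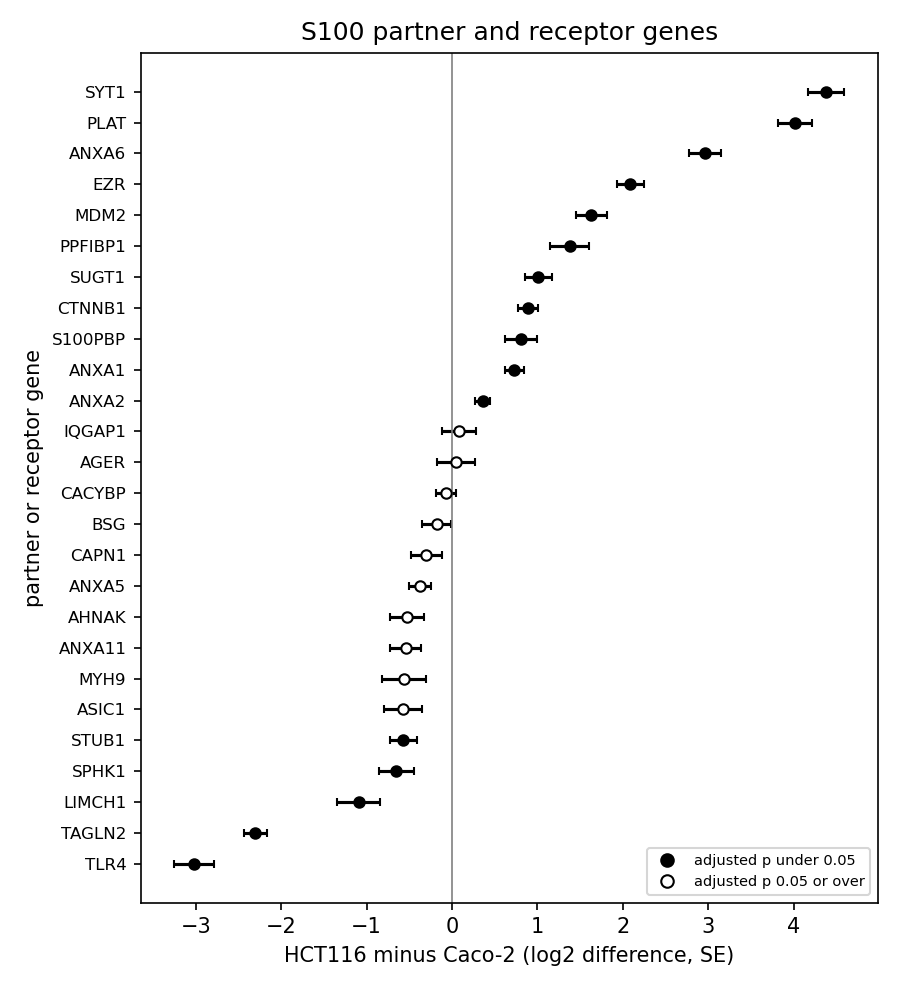
Log2 difference between HCT116 and Caco-2 with its standard error (horizontal axis) for the 26 tested partner, receptor and regulator genes of S100 proteins (vertical axis), filled where the limma adjusted p was under 0.05. The points spread to both sides of 0, from TLR4 on the Caco-2 side to SYT1 on the HCT116 side, with EZR at 2.09 and ANXA2 at 0.36; values of TLR4, PLAT and SYT1 are measured differences from a level below background.

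The other comparison asked how the S100 genes differed between BORIS and control siRNA. Most differed little. S100A2 was the exception, higher with BORIS siRNA by 1.12 in HCT116 (8.24 to 9.36), or 2.18-fold, and by 0.66 in Caco-2 (6.66 to 7.32), or 1.58-fold. At the threshold of 2-fold (1 log2 unit) it was the only 1 of 10 members in HCT116, where 2.03% of 10631 expressed genes reached that size, and 0 of 10 reached it in Caco-2, where 0.452% of 10389 did. At 1.5-fold, S100A2 was again the only member in either line by its representing probe set, beside 13.5% of genes in HCT116 and 3.92% in Caco-2. Of all expressed genes, 1.12% in HCT116 and 2.57% in Caco-2 differed by as much as S100A2 or more. On the HCT116 array with BORIS siRNA the poly-A spike-in controls read 0.87 higher than on its control array, and in Caco-2 they differed by -0.07; their part in the result was not tested.

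S100A10 was lower with BORIS siRNA in both lines and with both of its probe sets. One read 13.23 with control and 12.74 with BORIS siRNA in Caco-2, and 11.82 and 11.31 in HCT116, differences of -0.49 and -0.51. The other gave -0.48 and -0.35. S100A3 stood at -0.50 in Caco-2 and -0.39 in HCT116. The siRNA difference had the same sign in both lines for 5 of the 10 members, beside 54.2% of the 9855 genes expressed in both. Among the 5 is S100P, whose sign in HCT116 rests on a difference that rounds to 0.00.

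The 3 probe sets of S100A4 stood at 0.31, 0.49 and 0.71 in Caco-2 and at -0.07, 0.13 and 0.14 in HCT116. The size in Caco-2 therefore depended on the probe set, and 1 of the 3 passed 1.5-fold there. S100A13 stood at 0.00 in Caco-2 and -0.47 in HCT116, S100A14 at -0.12 and 0.42, and S100A16 at 0.00 and -0.26. S100A11 stood at 0.07 and 0.22 and S100A6 at 0.23 and -0.02. S100P stood at 0.16 and 0.00, where 99.9% of the genes expressed in HCT116 differed by as much or more.

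**Figure D4:**
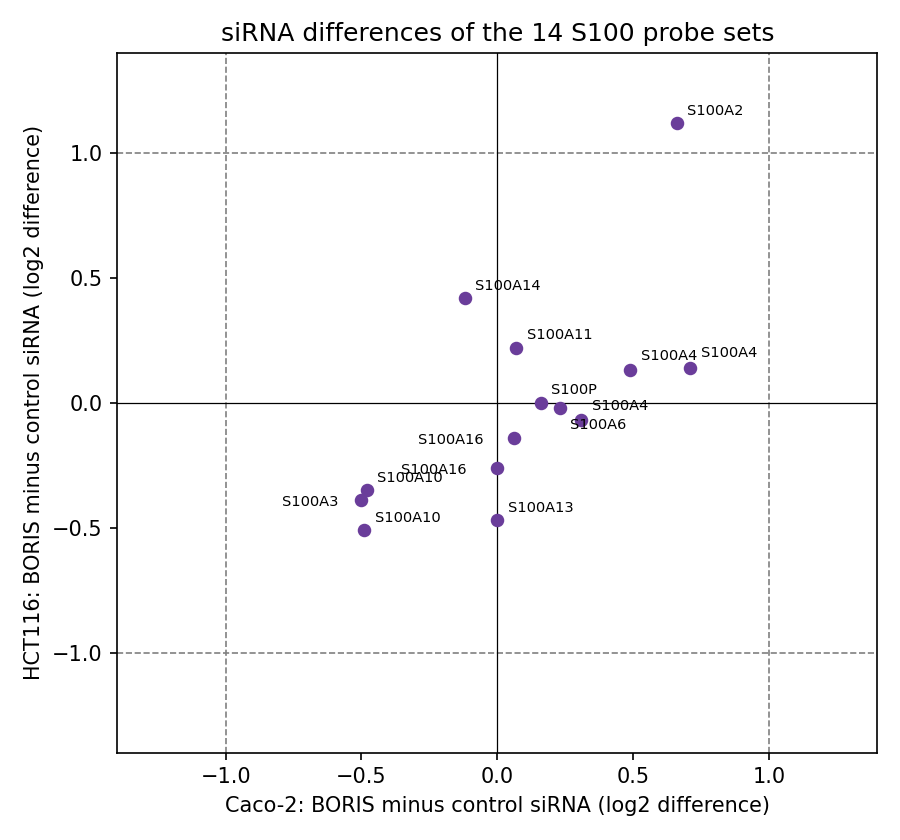
Log2 difference between BORIS and control siRNA in Caco-2 (horizontal axis) and in HCT116 (vertical axis) for the 14 probe sets of the 10 S100 genes, each point 1 probe set, with dashed lines at 2-fold. S100A2 at 0.66 and 1.12 is the only point past a dashed line, and S100A3 and both S100A10 probe sets lie together at the lower left.

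An siRNA effect shared by the lines was tested with limma over the 4 arrays, with the line as a blocking term. No member passed, and 0% of 11165 genes did. Without adjustment 2 members and 670 genes had a p under 0.05. For S100A2 the shared difference was 0.89 ± 0.20 (SE, limma adjusted p = 0.769), higher in 2 of 2 lines. For S100A10 it was -0.50 ± 0.10 (SE), with an equal adjusted p, lower in 2 of 2 lines. Both passed after quantile normalization (limma adjusted p = 0.0145 for each), where 82 genes were called in all. Both also passed after each array was loess-corrected on mean expression (limma adjusted p = 0.0273 and 0.0296), where 56 were called. The standard errors were no smaller there. After quantile normalization the differences were 0.88 ± 0.21 (SE) for S100A2 and -0.50 ± 0.12 (SE) for S100A10. After the loess correction they were 0.91 ± 0.21 (SE) and -0.49 ± 0.12 (SE). Under the other 7 alternatives the adjusted p lay between 0.388 and 0.867 for S100A2 and between 0.406 and 0.867 for S100A10.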

How the data were processed

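Total RNA was labelled with a 3' in vitro transcription kit and hybridised to PrimeView arrays, per the labels' protocols. Each deposited value is the log2 expression of a probe set, a unit read from their range and nearly equal quartiles; how the authors corrected background, normalized and summarised is not given in the sources used here. The platform's annotation named the 49395 probe sets and pairs 44988 with 1 gene and 1832 with several. Each gene took its brightest probe set by mean value, and was counted as expressed where this reached the array's overall median on at least 1 compared array. Differences were fitted with limma 3.58.1 in R 4.3.3 (lmFit, eBayes with trend), with Benjamini-Hochberg adjustment over all genes tested. Where both arrays of a line lay below the background level, the difference is a lower bound against it. Fold changes are linear folds from log2 differences.

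The members and lists were chosen with earlier results of these data known. All 10 members are named; partner genes were named where past a test or at 2-fold or, in a few cases chosen after their values were seen, for their S100 partner. Alternatives covered normalization, probe set choice, filter, a pseudocount of 16, the trend, the siRNA block and leaving out each array. The number of arrays limits the precision.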

Additional observations from a re-analysis of the deposited data

Results flagged for a closer look

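Members whose siRNA difference had opposite signs in the 2 lines are listed here; with 1 array per group the difference between the lines was not tested. For S100A14 the HCT116 difference minus the Caco-2 difference was 0.54, from -0.12 in Caco-2 and 0.42 in HCT116. For S100A4 it was -0.38, from 0.31 and -0.07, and its other 2 probe sets did not have opposite signs. For S100A6 it was -0.25, from 0.23 and -0.02. For S100A13 it was -0.48, from 0.00 and -0.47, and for S100A16 -0.26, from 0.00 and -0.26, where the sign in Caco-2 rests on a difference that rounds to 0.00.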

How the results depend on the processing

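S100A2, S100A3, S100A4, S100A10 and S100P kept their direction and their call between the lines under all 14 alternatives, and S100A11 under the 13 that give it a value, since it has none without _x_at and _s_at probe sets. The line difference ranged from 1.24 to 2.37 for S100A2, 1.35 to 1.89 for S100A3, 4.46 to 4.94 for S100A4, -1.67 to -1.17 for S100A10, -1.01 to -0.79 for S100A11 and -7.04 to -6.62 for S100P. The difference of S100A6, not called under any, turned to -0.08 without the Caco-2 control array, and lay between -0.08 and 0.15 with any 1 array left out. With each array left out in turn, 3 to 5 members were higher and 3 lower in HCT116, in fits with 1 residual degree of freedom and no siRNA term. At 1.5-fold, 1 member was counted in Caco-2 in place of 0. The test of a shared siRNA effect called 2 members after quantile normalization and 2 after the loess correction in place of 0. Their differences were nearly the same there and their standard errors no smaller, and the cause was not tested. Signals near background, such as S100A3 in Caco-2 and S100P in HCT116, limit the differences that rest on them.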
